A study of Homo sapiens with 36 samples.

Results

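The genes described here were 10 members of the BCL2 family, the regulators of mitochondrial apoptosis: BCL2, BCL2L1, MCL1, BAX, BAK1, BID, BIK, BCL2L11, PMAIP1 and BBC3. They were chosen by symbol, matched to Ensembl gene IDs, by a rule that uses no measured value, though earlier results of these data were known. All 10 had a row among the 29872 genes of the normalised count table, and all 10 passed the filter on low values at both time points (at least 10 normalised counts in at least 3 libraries), a filter passed by 16137 genes in the 24 h libraries and by 16341 in those of 72 h. RNA sequencing was done on LNCaP cells, a human prostate cancer line derived from a lymph node metastasis, in 36 libraries from 12 groups of 3 replicates. At each of 24 h and 72 h the groups were vehicle, AU2-94 at 1 µM, AU2-94 at 2 µM, atirmociclib at 1 µM, atirmociclib at 2 µM and ribociclib at 2 µM. AU2-94 and atirmociclib are CDK4-selective inhibitors and ribociclib inhibits both CDK4 and CDK6. The labels also put a dose of 2 µM on vehicle, whose meaning is not given in the sources used here. Each replicate number is labelled as a batch, and the study's methods describe the 3 libraries of a group as biological replicates. Cells for 72 h were seeded more sparsely than those for 24 h, so time under treatment and cell density cannot be told apart, and all results come from 1 cell line.

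BCL2 family proteins decide whether the outer mitochondrial membrane is opened, which releases cytochrome c and starts caspase activation. The anti-apoptotic members BCL2, BCL-xL (the long product of BCL2L1) and MCL1 bind and restrain the effectors BAX and BAK1, which form the pores. The BH3-only members BID, BIK, BIM (BCL2L11), NOXA (PMAIP1) and PUMA (BBC3) relay stress signals by occupying the anti-apoptotic proteins or by activating the effectors. Many of them are controlled at the protein level as well, by cleavage, phosphorylation and turnover, which RNA does not show.

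Totals ran from 20675156 to 22692555 normalised counts, which does not give read depth. At 24 h vehicle stood at 20675156 to 20824457 and the treated libraries above it, at 21109729 to 22054249. At 72 h vehicle stood at 21436280 to 21617499 and ribociclib at 21549976 to 21903096. AU2-94 was lower (20910659 to 21160254) and atirmociclib higher (22024631 to 22692555). Scaling to equal totals was among the alternatives tried below. The prostate and luminal markers KLK3, KLK2, TMPRSS2, FOLH1, HOXB13, KRT8 and KRT18 were high in all 36 libraries, the lowest single value among them being 2239 for KLK2. Of 11 markers of other cell types, KRT5, TP63, DCN, PTPRC, CD3E and PECAM1 were at 0 in 25 to 35 libraries and LYZ in 19, while KRT14 (4.35 to 88.6), COL3A1 (5.45 to 36.9), COL1A1 (194 to 644) and VWF (184 to 713) were above 0 in all 36. The sum over those 11 markers was 578 to 887 at 24 h. At 72 h it was 708 to 908 in vehicle and 822 to 1459 in the treated libraries, with the highest values under atirmociclib at 1 µM (1365 to 1459). Whether that rise has any part in the 72 h results below was not tested.

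The first question was which members differed from vehicle under CDK4 inhibition. The anti-apoptotic genes divided: BCL2 fell in 8 of the 10 comparisons with vehicle, whereas BCL2L1 rose in 7 and MCL1 in 6. Of the effectors, BAX fell in 9 and BAK1 passed the test in none. Among the BH3-only genes PMAIP1 fell in 9 and BCL2L11 in 8, BIK rose in 3, all at 72 h, BID fell in 1 and BBC3 passed in none. These calls were not equally firm. All those of PMAIP1 and BCL2L1 held without each library in turn and under every other setting tried. So did 5 of 9 for BAX, 4 of 8 for BCL2, 2 of 6 for MCL1, 1 of 8 for BCL2L11, 0 of 3 for BIK and 0 of 1 for BID. A change here means a Benjamini-Hochberg adjusted p of at most 0.05 over all genes tested, from limma on log2(normalised count + 1) with the 6 groups of a time point in one fit. Since the cultures were profiled in bulk, fewer cells expressing a gene and less RNA per cell cannot be told apart.

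**Figure D1:**
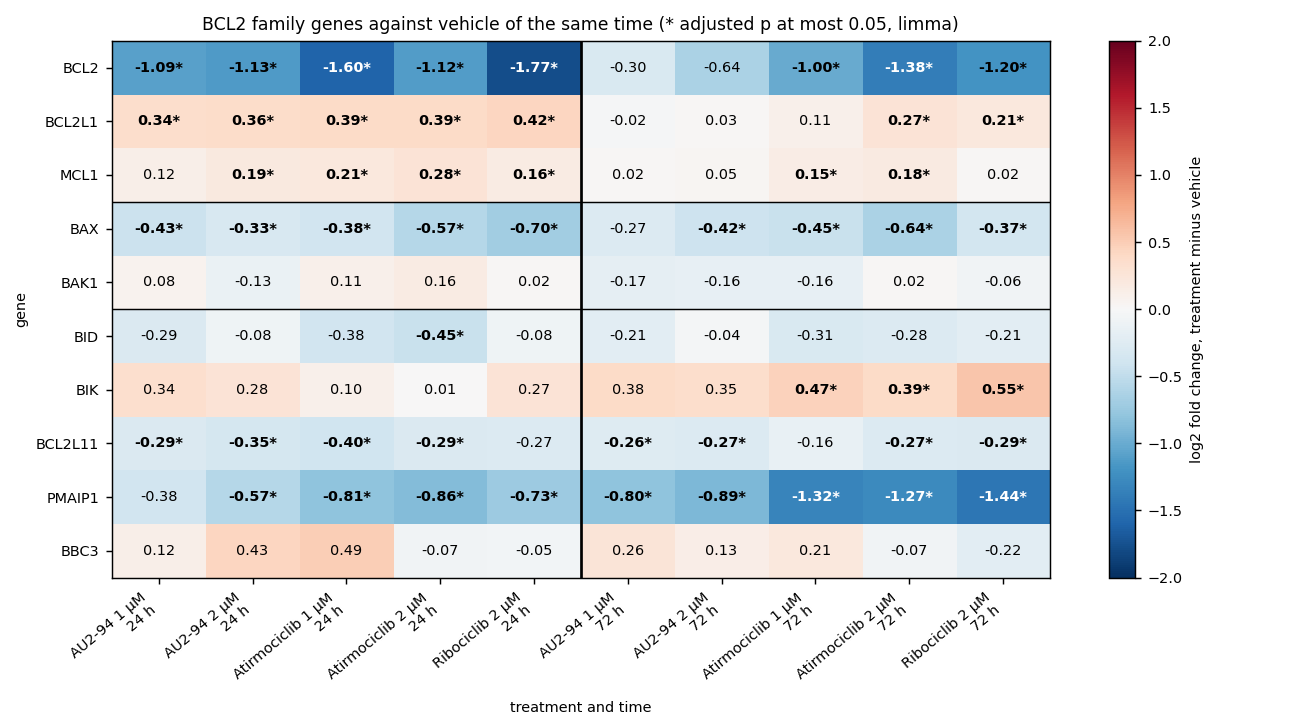
Log2 fold change of the 10 genes (rows, grouped by role) in each treatment against vehicle of the same time (columns); blue is lower, red is higher, and an asterisk marks an adjusted p of at most 0.05 by limma. The rows of BCL2, BAX, BID, BCL2L11 and PMAIP1 are below 0 in all 10 columns, down to -1.77 for BCL2 under ribociclib at 24 h. The BID row holds 1 asterisk.

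At 24 h, AU2-94 at 1 µM left 1 member higher and 3 lower, where 14.3% of all genes tested were higher and 13.5% lower. With the 2 µM dose, 2 were higher and 4 lower (background 16% and 14.9%). Atirmociclib gave 2 higher and 4 lower at 1 µM (background 16.6% and 15.4%), and 2 higher and 5 lower at 2 µM (background 18.6% and 16.2%). Ribociclib left 2 higher and 3 lower (background 16.8% and 15.2%). The 1 or 2 of 10 members that were higher thus lay close to the background, and the 3 to 5 of 10 that were lower lay above it. The median absolute log2 fold change of the members was 0.27 to 0.39, beside 0.22 to 0.25 over all genes. Under a stricter rule, which adds a minimum of 1 for the size of the log2 fold change, BCL2 was the 1 member past it in each of the 5 treatments; AU2-94 took 4% of all genes past that rule at the lower dose and 5.03% at the higher, atirmociclib 5.72% and 6.08%, ribociclib 5.05%.

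At 72 h fewer members passed under AU2-94. None was higher and 2 were lower at 1 µM (background 15.4% higher and 17% lower), and none was higher and 3 were lower at 2 µM (background 14.2% and 15.3%). Atirmociclib at 1 µM left 2 higher and 3 lower (background 20% and 19.8%), and at 2 µM 3 higher and 4 lower (background 20.9% and 19.6%). For ribociclib 2 were higher and 4 lower (background 15.5% and 15.4%). The members' median absolute log2 fold change at 72 h, 0.21 to 0.27, lay close to that of all genes, 0.23 to 0.29. BCL2 and PMAIP1 were the 2 members past the stricter rule under atirmociclib at either dose and under ribociclib, where it took in 6.74%, 7.54% and 4.49% of all genes; under AU2-94 it took in 4.38% and 3.86% and no member. With 10 genes and no test of the list, nothing particular to the family is read from these counts. All 5 treatments of a time point share its 3 vehicle libraries, so their values are given side by side and not as separate evidence.

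**Figure D2:**
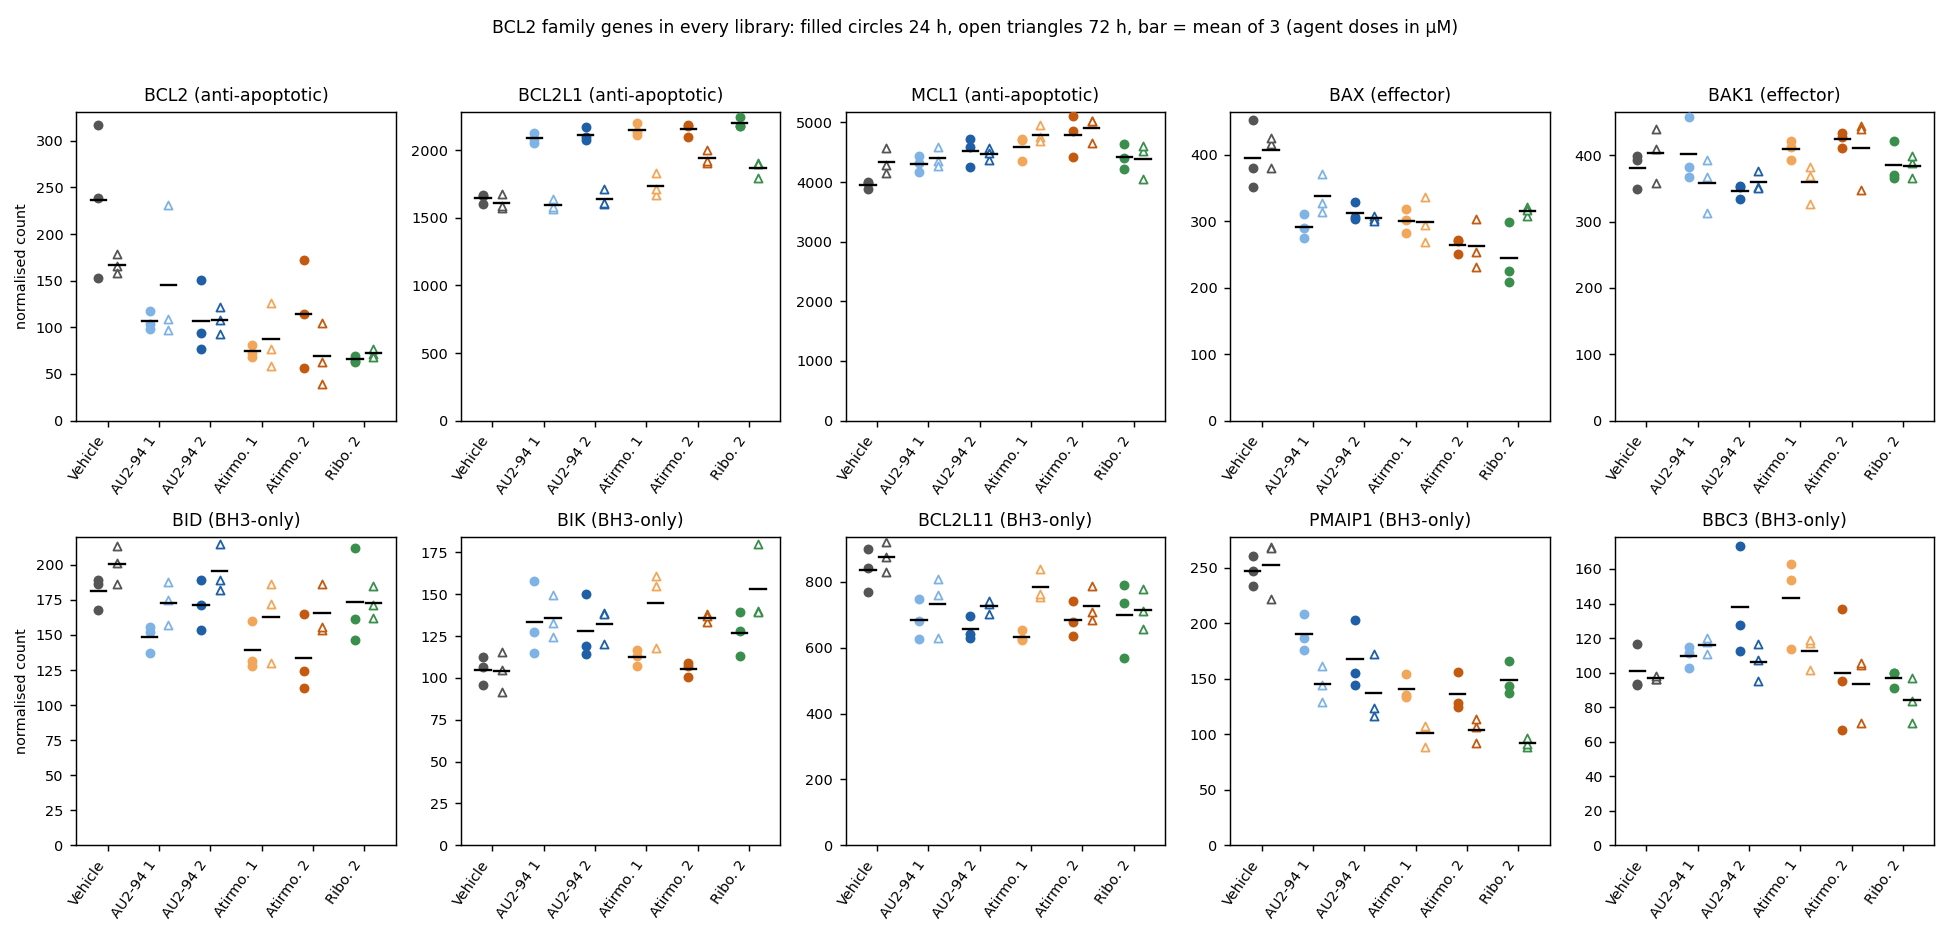
Normalised count of each gene (vertical axes, each from 0) in all 36 libraries by treatment, with filled circles at 24 h, open triangles at 72 h and bars at the mean of 3. The BCL2L1 circles of the 5 treatments, 2055 to 2250.0, all lie above the vehicle circles, 1602 to 1669.8, and PMAIP1 is below vehicle in every treated library.

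BCL2, the founding anti-apoptotic member (GRCh38 chr18:63123346-63320128, minus strand), was lower in all 5 treatments at 24 h. The vehicle libraries held 239, 317 and 153 normalised counts in replicates 1, 2 and 3. Ribociclib gave 63.2, 69.6 and 64.4, atirmociclib at 1 µM 68.6, 81.1 and 72.8 and AU2-94 at 1 µM 117, 97.97 and 104, all below the lowest vehicle library. AU2-94 at 2 µM (151, 76.6 and 94.2) also stayed below it, whereas atirmociclib at 2 µM spread from 56.5 to 172 and overlapped vehicle. The log2 fold changes, each with an SE of 0.32, were -1.77 for ribociclib (adjusted p = 0.000314, limma), -1.60 for atirmociclib at 1 µM (adjusted p = 0.000778), -1.13 for the 2 µM dose of AU2-94 (adjusted p = 0.0115), -1.09 for its 1 µM dose (adjusted p = 0.0165) and -1.12 for atirmociclib at 2 µM (adjusted p = 0.0108). The ribociclib level was thus 0.293 times vehicle. Its spread between replicates was the widest of the 10 genes, with a median SD within groups of 0.35 on the log2 scale against 0.034 for BCL2L1.

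At 72 h the vehicle libraries were closer together (165, 158 and 179), and BCL2 was lower with atirmociclib and ribociclib. Ribociclib gave 71.5, 68.6 and 77.1, atirmociclib at 2 µM 63.0, 38.7 and 105 and atirmociclib at 1 µM 126, 76.4 and 58.6, none of which reached vehicle. The log2 fold changes were -1.20, -1.38 and -1.005 (SE 0.33, adjusted p = 0.00954, 0.00249 and 0.0211, limma). AU2-94 at 2 µM (122, 93.1 and 108) lay below vehicle with a log2 fold change of -0.64 that did not pass (adjusted p = 0.162) except with only the groups compared in the fit (0.0103). With AU2-94 at 1 µM, replicate 1 stood at 231, above every vehicle library, while the other two were at 109 and 97.5, and the log2 fold change was -0.30 (adjusted p = 0.518).

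Of the 8 BCL2 calls, 4 held whichever library was left out: atirmociclib at 1 µM and ribociclib at 24 h, and atirmociclib at 2 µM and ribociclib at 72 h. The other 4 depended on single libraries. For AU2-94 at 1 µM for 24 h, the call was lost without treated replicate 2 (0.0506) or vehicle replicate 2 (0.0900), the figures in parentheses being the adjusted p that remained. At 2 µM it was lost without treated replicate 2 (0.0631) or vehicle replicate 2 (0.0682). The call for atirmociclib at 2 µM for 24 h was lost without treated replicate 1 (0.0774, log2 fold change -0.69) or vehicle replicate 2 (0.0647), and with only the groups compared in the fit (0.0503). The call for atirmociclib at 1 µM for 72 h was lost without treated replicate 2 (0.0613), treated replicate 3 (0.110) or vehicle replicate 3 (0.0589). Vehicle replicate 2 at 24 h, the library at 317, was common to all the 24 h cases.

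BCL2L1, which encodes BCL-xL (GRCh38 chr20:31664452-31723989, minus strand), moved the other way and had the smallest spread between replicates of the 10 genes. Its start region is shown because the gene responded in all 5 treatments at 24 h; capitals mark the 1 motif match in this stretch, which lies upstream of a RefSeq start and outside annotated exons: the core of the cyclic AMP response element (CRE), TGACG.
BCL2L1 promoter, chr20:31723990-31724213, minus strand: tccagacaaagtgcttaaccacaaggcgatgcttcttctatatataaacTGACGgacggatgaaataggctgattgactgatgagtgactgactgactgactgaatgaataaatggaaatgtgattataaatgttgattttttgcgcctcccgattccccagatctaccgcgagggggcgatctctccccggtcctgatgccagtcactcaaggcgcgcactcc
TGACG on either strand occurs in 24.6% of the 35116 RefSeq promoter windows of 300 bases (GRCh38.p14), so a match here is a description and not a site of binding.

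Vehicle held 1669.8, 1602 and 1663 normalised counts of BCL2L1 at 24 h, and all 15 treated libraries lay above these, at 2055 to 2250.0. AU2-94 gave log2 fold changes of 0.34 (1 µM) and 0.36 (2 µM), atirmociclib 0.39 at either dose and ribociclib 0.42 (SE 0.042 for each, adjusted p from 3.30e-07 to 6.15e-06, limma), that is 1.27 to 1.34 times vehicle. No treated library overlapped vehicle, and each rise was small but several times its error. At 72 h vehicle held 1577, 1676 and 1586, and 2 of the 5 treatments were higher. Atirmociclib at 2 µM gave 2004, 1904 and 1924 (log2 fold change 0.27, SE 0.052, adjusted p = 0.000392) and ribociclib 1904, 1898 and 1797 (0.21, adjusted p = 0.00452). The 1 µM dose of atirmociclib gave 1670.3, 1713 and 1835, which did not pass (0.11, adjusted p = 0.109) but did after quantile normalisation (0.0285) or with all 12 groups in the fit (0.0445). AU2-94 at 1 µM (1637, 1565 and 1580.3) and 2 µM (1717, 1602 and 1609.6) overlapped vehicle, with 95% intervals of the log2 difference from -0.13 to 0.092 and from -0.083 to 0.14. All 7 BCL2L1 calls held without each library in turn and under every other setting tried. The antisense lncRNA ABALON shares 1735 exon bases with BCL2L1, 41.3% of its exons, on the opposite strand; its own mean was 10.9 normalised counts, and since the strand setting of the counting is not given in the sources used here, reads of the pair cannot be told apart.

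MCL1, a short-lived anti-apoptotic protein (GRCh38 chr1:150560895-150579738, minus strand), had the highest counts of the 10 genes and small changes. At 24 h vehicle held 3980.2, 3884 and 4006 and all 15 treated libraries were above it, at 4164 to 5115. Atirmociclib at 2 µM gave 5115, 4855 and 4424 (log2 fold change 0.28, SE 0.055, adjusted p = 0.000737, limma) and at 1 µM 4705, 4349 and 4715 (0.21, adjusted p = 0.00613), both calls holding without each library. AU2-94 at 2 µM (0.19, adjusted p = 0.0125) lost its call without treated replicate 2 (0.0615). Ribociclib (0.16, adjusted p = 0.0345) lost it without treated replicate 2 (0.0685), treated replicate 3 (0.1503), vehicle replicate 1 (0.0674), vehicle replicate 2 (0.100) or vehicle replicate 3 (0.0592), and with no filter (0.0605), after quantile normalisation (0.149), after scaling to equal totals (0.164) or without the trend (0.0704). The 1 µM dose of AU2-94 did not pass (0.12, adjusted p = 0.116).

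At 72 h the vehicle libraries of MCL1 stood at 4147, 4569 and 4292, and only atirmociclib passed the test. Its log2 fold change was 0.15 at 1 µM and 0.18 at 2 µM (SE 0.053, adjusted p = 0.0330 and 0.0111, limma), with all 6 libraries at 4664 to 5030.2. The 1 µM call was lost without treated replicate 1 (0.118), treated replicate 2 (0.0586), vehicle replicate 1 (0.136) or vehicle replicate 3 (0.0815), and with no filter (0.0583), after scaling to equal totals (0.107) or without the trend (0.0658). At 2 µM it was lost without vehicle replicate 1 (0.0582), and after quantile normalisation (0.0724) or after scaling to equal totals (0.122). AU2-94 and ribociclib overlapped vehicle, at log2 fold changes of 0.017 to 0.046. MCL1 shares 328 exon bases with ADAMTSL4-AS1 on its own strand and 43 with ADAMTSL4 on the other.

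BAX, a pore-forming effector (GRCh38 chr19:48954815-48961798, plus strand), was lower in treated cells at both times. Its upstream stretch is printed because the gene fell in 9 of 10 comparisons. Capitals mark CCAAT boxes (CCAAT or ATTGG), E boxes (CACGTG) and a CRE core (TGACG), the last sharing bases with an E box in the run CACGTGACG.
BAX promoter, chr19:48954625-48954814, plus strand: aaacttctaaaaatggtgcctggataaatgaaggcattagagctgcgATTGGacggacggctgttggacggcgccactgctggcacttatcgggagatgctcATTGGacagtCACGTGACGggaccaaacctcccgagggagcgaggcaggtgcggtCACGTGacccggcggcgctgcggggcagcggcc
The CACGTG E box was found in 7.26% of the RefSeq windows and CCAAT in 34.6%, both strands searched. E2F octamers (TTTCCCGC, TTTCGCGC, TTTGCCGC or TTTGGCGC) were in 3.31% of all windows and in 0 of the 13 windows of the 8 members that matched RefSeq, which says only that those letters are not in these windows. BIK and MCL1 had no entry in the promoter table.

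Vehicle held 351, 379.9 and 452 normalised counts of BAX at 24 h and 416, 426 and 380.0 at 72 h, and all 15 treated libraries lay below vehicle at each time. Ribociclib for 24 h gave 208, 298 and 226 (log2 fold change -0.70, SE 0.12, adjusted p = 0.000220, limma), the largest difference. Atirmociclib at 2 µM gave 269.9, 271 and 251 (-0.57, adjusted p = 0.00129). These 2 calls held without each library. The remaining 24 h calls were weaker: -0.43 for AU2-94 at 1 µM (adjusted p = 0.0136), -0.33 at 2 µM (adjusted p = 0.0497) and -0.38 for atirmociclib at 1 µM (adjusted p = 0.0213). All of them rested on vehicle replicate 3, the library at 452. The call for AU2-94 at 1 µM was lost without treated replicate 2 (0.0517) or vehicle replicate 3 (0.0822). For AU2-94 at 2 µM it was lost without treated replicate 1 (0.0609), treated replicate 2 (0.114), treated replicate 3 (0.123), vehicle replicate 2 (0.0770) or vehicle replicate 3 (0.226), and with a pseudocount of 8 (0.0506), with no filter (0.0756), after quantile normalisation (0.137), with the replicate block (0.0577), without the trend (0.0535) or with only the groups compared in the fit (0.0611). For atirmociclib at 1 µM it was lost without treated replicate 1 (0.0797) or vehicle replicate 3 (0.120), and after quantile normalisation (0.110).

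At 72 h BAX was lowest with atirmociclib at 2 µM, at 230.3, 304 and 254 (log2 fold change -0.64, SE 0.11, adjusted p = 0.000102, limma). Both atirmociclib at 1 µM (-0.45, adjusted p = 0.00276) and AU2-94 at 2 µM (-0.42, adjusted p = 0.00646) fell, and these calls held without each library. The ribociclib call (-0.37, adjusted p = 0.0141) was lost without vehicle replicate 2 (0.0550). In the 1 µM AU2-94 libraries BAX stood at 327, 313 and 371 and did not pass (-0.27, adjusted p = 0.0600), though it did without treated replicate 3 (0.0380).

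BAK1, the other effector (GRCh38 chr6:33572547-33580293, minus strand), gave no call. Vehicle held 399, 349.7 and 392.02 at 24 h and 358, 409.9 and 439.5 at 72 h, and the treated libraries covered 334 to 458 and 312 to 444. The log2 fold changes ran from -0.13 to 0.16 at 24 h (SE 0.092) and from -0.17 to 0.025 at 72 h (SE 0.11), with no unadjusted p under 0.05 by limma. For atirmociclib at 2 µM for 24 h all 3 libraries were above vehicle, with a 95% interval of -0.035 to 0.35, and the comparison passed after quantile normalisation (0.0216). The processed pseudogene BAK1P1 matches BAK1 over 636 bases at 98.27% identity, so some BAK1 reads could have been assigned elsewhere and its level is uncertain to that extent.

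PMAIP1 (GRCh38 chr18:59899996-59904305, plus strand), which encodes NOXA, a BH3-only protein that binds mainly MCL1, showed falls in 9 of 10 comparisons, none of which depended on a single library. Its upstream stretch is printed for that reason; capitals mark GC boxes (GGGCGG or CCGCCC) and a CRE core.
PMAIP1 promoter, chr18:59899746-59899995, plus strand: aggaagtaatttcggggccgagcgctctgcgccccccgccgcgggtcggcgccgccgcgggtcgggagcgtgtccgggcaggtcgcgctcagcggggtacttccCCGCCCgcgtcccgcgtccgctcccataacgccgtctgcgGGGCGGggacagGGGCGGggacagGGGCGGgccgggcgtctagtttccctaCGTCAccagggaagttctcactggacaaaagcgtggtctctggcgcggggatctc
GC boxes occur in 45% of all RefSeq windows.

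Vehicle libraries held 234, 261 and 247 normalised counts of PMAIP1 at 24 h, and all 15 treated libraries were lower. Atirmociclib at 2 µM gave 156, 125 and 128 (log2 fold change -0.86, SE 0.14, adjusted p = 8.93e-05, limma) and ribociclib 165, 137 and 143 (-0.73, adjusted p = 0.000477). Falls were also seen with atirmociclib at 1 µM (-0.81, adjusted p = 0.000183) and AU2-94 at 2 µM (-0.57, adjusted p = 0.00387). The 1 µM dose of AU2-94, at 208, 176 and 187, just missed (-0.38, adjusted p = 0.0504). It passed under 8 of 11 alternatives (lowest adjusted p = 0.0286, with the replicate number as a block) and without its replicate 1 (0.0489).

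At 72 h PMAIP1 lay further below vehicle in value in every treatment, a change over time that passed the test given below for ribociclib alone. Against vehicle at 269, 267 and 221, ribociclib gave 88.5, 91.0 and 96.5 (log2 fold change -1.44, SE 0.16, adjusted p = 9.74e-07, limma), or 0.368 times vehicle. The atirmociclib libraries held 88.4, 107 and 107 at 1 µM (-1.32, adjusted p = 1.79e-06) and at 2 µM 106, 113 and 91.9 (-1.27, adjusted p = 2.40e-06). AU2-94 left higher levels, 145, 129 and 162 at 1 µM (-0.80, adjusted p = 0.000633) and 123, 172 and 116 at 2 µM (-0.89, adjusted p = 0.000261). All 15 treated libraries were again below vehicle, and all 9 PMAIP1 calls held without each library and under every other setting tried.

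BCL2L11 (GRCh38 chr2:111119378-111168444, plus strand) encodes BIM, a BH3-only activator induced by loss of growth factor signalling through FOXO factors. The stretch shown lies upstream of a RefSeq start but inside the gene span given above. It is printed because it was the 1 member window with a FOXO motif (TGTTTAC or GTAAACA, in 3.42% of all windows). The match is a description, and binding of FOXO factors was not tested. Capitals also mark GC boxes and a CCAAT box.
BCL2L11 promoter, chr2:111120664-111120913, plus strand: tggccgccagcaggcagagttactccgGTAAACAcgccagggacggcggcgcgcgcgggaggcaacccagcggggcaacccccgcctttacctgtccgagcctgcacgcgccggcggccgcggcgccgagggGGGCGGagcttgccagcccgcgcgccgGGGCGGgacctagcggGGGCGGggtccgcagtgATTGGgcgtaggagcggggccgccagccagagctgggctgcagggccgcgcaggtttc
At 24 h vehicle held 899, 843 and 770.2 normalised counts, and 14 of 15 treated libraries were lower. Atirmociclib at 1 µM gave 623, 625 and 653 (log2 fold change -0.40, SE 0.10, adjusted p = 0.00673, limma), the 1 BCL2L11 call of 8 that held under every alternative. AU2-94 at 2 µM (-0.35, adjusted p = 0.0162) was lost without treated replicate 2 (0.0566) or vehicle replicate 1 (0.0734). At 1 µM its call (-0.29, adjusted p = 0.0471) was lost without treated replicate 1 (0.175), treated replicate 2 (0.0950), vehicle replicate 1 (0.166) or vehicle replicate 2 (0.104), and with no filter (0.0731), after quantile normalisation (0.0953), with the replicate block (0.0595) or without the trend (0.0683). The call for atirmociclib at 2 µM (-0.29, adjusted p = 0.0380) was lost without treated replicate 1 (0.0863), treated replicate 2 (0.137), vehicle replicate 1 (0.141) or vehicle replicate 2 (0.0851), and with no filter (0.0590), after quantile normalisation (0.103) or without the trend (0.0563). Ribociclib spread from 569.9 to 792 and did not pass (-0.27, adjusted p = 0.0566), though it did with a filter on a mean of 100 (0.0470), after scaling to equal totals (0.0243), with all 12 groups in the fit (0.0359), without treated replicate 1 (0.0176) or without vehicle replicate 3 (0.0438).

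At 72 h BCL2L11 in vehicle stood at 920.2, 875 and 829 and the falls were of like size, -0.26 to -0.29 on the log2 scale in the 4 treatments that passed (SE 0.090, adjusted p = 0.0197 to 0.0332, limma). Each depended on single libraries. Ribociclib, at 712, 657 and 779, was lost without treated replicate 2 (0.0880) or vehicle replicate 1 (0.0761). For atirmociclib at 2 µM the call was lost without treated replicate 2 (0.0914), treated replicate 3 (0.0677), vehicle replicate 1 (0.0871) or vehicle replicate 2 (0.0536), and after quantile normalisation (0.0621). For AU2-94 at 2 µM it was lost without treated replicate 1 (0.0600), treated replicate 2 (0.0556), treated replicate 3 (0.0980), vehicle replicate 1 (0.110) or vehicle replicate 2 (0.0728), and after quantile normalisation (0.0667) or after scaling to equal totals (0.0625), and at 1 µM without treated replicate 1 (0.201, log2 fold change -0.16), vehicle replicate 1 (0.114) or vehicle replicate 2 (0.0742), and after quantile normalisation (0.0875), after scaling to equal totals (0.0725) or with only the groups compared in the fit (0.0674). The 1 µM dose of atirmociclib, at 753, 838 and 765, did not pass (-0.16, adjusted p = 0.188). The lncRNA MIR4435-2HG shares 727 exon bases with BCL2L11 on the opposite strand, 10.8% of its exons, at a mean of 22.2 normalised counts.

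BIK, a BH3-only protein of the endoplasmic reticulum (GRCh38 chr22:43110750-43129712, plus strand), was the 1 pro-apoptotic member that rose. Vehicle at 72 h held 105, 91.5 and 116 and all 15 treated libraries were higher, at 118 to 180.1. Ribociclib gave 140.0, 139 and 180.1 (log2 fold change 0.55, SE 0.15, adjusted p = 0.00767, limma), and the call was lost without treated replicate 3 (0.0516). With atirmociclib the 1 µM call (0.47, adjusted p = 0.0167) was lost without treated replicate 1 (0.0664), treated replicate 2 (0.0798) or vehicle replicate 2 (0.0801), and with only the groups compared in the fit (0.0509). Its 2 µM call (0.39, adjusted p = 0.0407) was lost without treated replicate 1 (0.0688), treated replicate 2 (0.0895), treated replicate 3 (0.0850), vehicle replicate 1 (0.0742) or vehicle replicate 2 (0.158), and with no filter (0.0690), after scaling to equal totals (0.0979), with the replicate block (0.0543) or with only the groups compared in the fit (0.0639). AU2-94 at 1 and 2 µM did not pass (0.38, adjusted p = 0.0541, and 0.35, adjusted p = 0.0830). The 1 µM dose passed with a filter on a mean of 100 (0.0456), after scaling to equal totals (0.0391), without the trend (0.0407), with all 12 groups in the fit (0.0374) or without vehicle replicate 3 (0.0421). At 24 h vehicle stood at 95.5, 106 and 113, 11 of 15 treated libraries were above it, and the log2 fold changes of 0.011 to 0.34 gave no call.

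BID, which caspase-8 cleaves to link death receptors to mitochondria (GRCh38 chr22:17734138-17774770, minus strand), gave 1 call. With atirmociclib at 2 µM for 24 h it was 165, 124 and 112 against 168, 189 and 186 in vehicle (log2 fold change -0.45, SE 0.16, adjusted p = 0.0351, limma), and the call was lost without treated replicate 2 (0.101), treated replicate 3 (0.153), vehicle replicate 2 (0.0950) or vehicle replicate 3 (0.0888), and with no filter (0.0585), after quantile normalisation (0.161) or with only the groups compared in the fit (0.0627). In the other 9 comparisons the log2 fold change was -0.037 to -0.38, all below 0 and none past the test. Atirmociclib at 1 µM passed it at 24 h after scaling to equal totals (0.0399) or with all 12 groups in the fit (0.0472) and at 72 h after scaling to equal totals (0.0481) or without treated replicate 1 (0.0356), and its 2 µM dose at 72 h after scaling to equal totals (0.0435). BBC3, which encodes PUMA (GRCh38 chr19:47220822-47232766, minus strand), passed in none. Its vehicle libraries held 93.1, 93.5 and 117 at 24 h and 96.2, 96.2 and 98.2 at 72 h, and the log2 fold changes ran from -0.22 to 0.49. The lowest unadjusted p was 0.0369, for atirmociclib at 1 µM for 24 h, which passed after quantile normalisation (0.0393) or without treated replicate 2 (0.0496). The BBC3 spread was wide in atirmociclib at 2 µM for 24 h, at 137, 95.2 and 67.0.

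Dividing by exon length (the union of GENCODE 44 exons in kb) allows only a rough comparison of levels between genes. The union takes in all annotated exons, 12612 bases for BCL2 and 951 for BIK, whether or not these cells use them. The ranks, ratios and shares below therefore depend on the annotation. In vehicle at 24 h the mean level per kb was 636 for MCL1, 392.002 for BCL2L1, 172 for BAK1, 152 for BAX, 124 for BCL2L11, 113 for PMAIP1, 110.3 for BIK, 41.0 for BID, 31.7 for BBC3 and 18.8 for BCL2. Of neighbours in that order, the library ranges overlapped for BAK1 and BAX, for BCL2L11 and PMAIP1 and for PMAIP1 and BIK, so those pairs are not ordered. MCL1, BCL2L1 and BAK1 held ranks 1, 2 and 3 and BCL2 rank 10 in all 12 groups. BIK stood at rank 7 in both vehicle groups and at rank 4 in all 10 treated groups, by the means. The rank does not show a rise of BIK by itself. BAX, BCL2L11 and PMAIP1, at ranks 4, 5 and 6 in vehicle, had lower means in every treated group. Under atirmociclib at 2 µM for 24 h BIK stood at 110.9 per kb, beside 110.3 in vehicle. Its library range there (105.9 to 114.3) overlapped that of BCL2L11 (94.1 to 109.9). The ratio of BCL2L1 to BCL2 per kb was 15.2 to 32.6 in vehicle at 24 h and 36.6 to 116 in the 15 treated libraries, with no overlap. At 72 h it was 26.7 to 31.9 in vehicle and 21.3 to 148 in treated libraries, of which 14 of 15 were above vehicle, the exception being AU2-94 at 1 µM replicate 1. MCL1 made up 60.5 to 61.2% of the per-kb sum of the 3 anti-apoptotic genes in vehicle at 24 h and 55.7 to 61.0% in treated libraries. At 72 h the share was 63.2 to 64.1% in vehicle and 58.6 to 66.1% in treated libraries, which lay on both sides of vehicle.

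**Figure D3:**
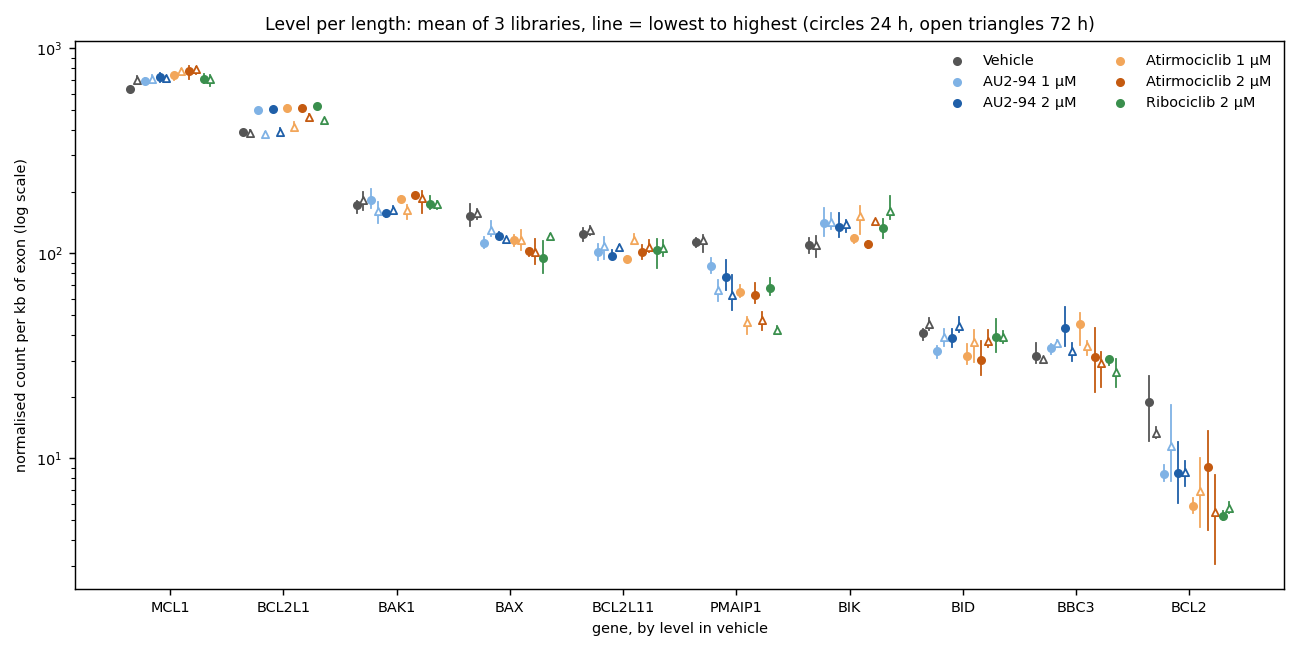
Normalised count per kb of exon (vertical log axis) of the 10 genes by group, with circles at 24 h and open triangles at 72 h for means of 3 libraries and lines from the lowest to the highest library. The order runs from MCL1, at a vehicle mean of 636 per kb at 24 h, to BCL2 at 18.8.

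The next question was whether the agents differed from each other at matched dose and time, in 8 comparisons: atirmociclib against AU2-94 at 1 and at 2 µM, ribociclib against AU2-94 at 2 µM and ribociclib against atirmociclib at 2 µM, each at 24 h and 72 h. At 24 h no member passed by limma, where 4.64%, 9.44%, 0.0372% and 4.64% of all genes did. An unadjusted p under 0.05 was reached by 1, 3, 2 and 2 members, beside 2816, 3802, 2032 and 2878 of the 16137 genes tested. The nearest was BAK1, 0.29 higher with atirmociclib than with AU2-94 at 2 µM (95% interval 0.099 to 0.48, adjusted p = 0.0530). At 72 h 1 member passed in each comparison of atirmociclib with AU2-94, where 8.24% of all genes passed at 1 µM and 19.8% at 2 µM. None passed for ribociclib against AU2-94 (3.34% of all genes) or against atirmociclib (9.18%). An unadjusted p under 0.05 was reached there by 3 and 2 members, beside 2770 and 3730 of the 16341 genes tested.

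BCL2L1 at 72 h was higher with atirmociclib at 2 µM, at 2004, 1904 and 1924, than with AU2-94 at 2 µM, at 1717, 1602 and 1609.6, and the libraries did not overlap. The log2 difference was 0.24 (SE 0.052, 95% interval 0.13 to 0.35, adjusted p = 0.00248, limma), and it fell to 0.14 and lost its call after scaling to equal totals (adjusted p = 0.0624). PMAIP1 at 72 h was lower with atirmociclib at 1 µM, at 88.4, 107 and 107, than with AU2-94 at 1 µM, at 145, 129 and 162. That log2 difference, -0.52 (SE 0.16, adjusted p = 0.0462, limma), was lost without any 1 of the 6 libraries (adjusted p = 0.0506 to 0.176), and with no filter (0.0827), after quantile normalisation (0.102), with the replicate block (0.0557) and with only the groups compared in the fit (0.0738). For ribociclib against AU2-94 at 72 h, the BCL2L1 difference of 0.18 (95% interval 0.075 to 0.29) and the PMAIP1 difference of -0.55 (-0.88 to -0.22) did not pass (adjusted p = 0.0603 and 0.0601). The first passed with a filter on a mean of 100 (0.0420) or with all 12 groups in the fit (0.0106), and the other with a filter on a mean of 100 (0.0476), after scaling to equal totals (0.0461) or with all 12 groups in the fit (0.0248). BCL2 differed between agents by up to -0.74 (atirmociclib minus AU2-94 at 2 µM for 72 h) with an interval of -1.44 to -0.051, and did not pass.

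**Figure D4:**
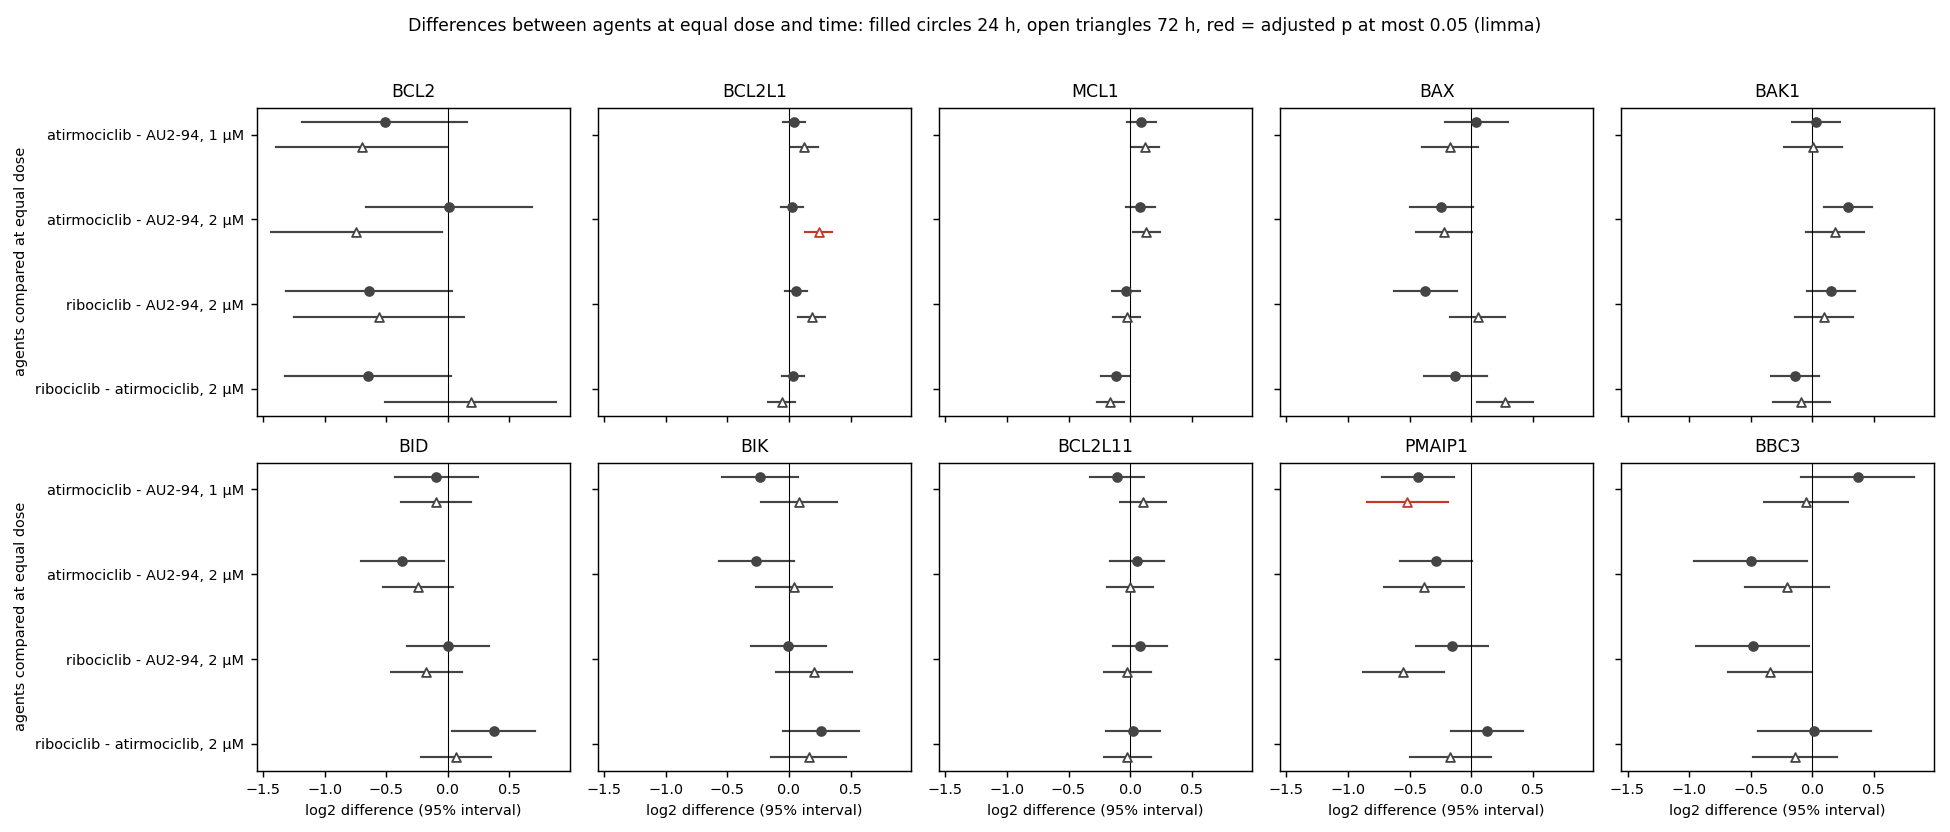
Log2 difference between agents at the same dose and time for the 10 genes, with 95% intervals from limma. BCL2L1 for atirmociclib minus AU2-94 at 2 µM for 72 h lies above 0, from 0.13 to 0.35, while the BCL2 intervals are the widest.

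The higher against the lower dose was tested in 4 comparisons, and no member passed by limma. With AU2-94, 0.409% of all genes passed after 24 h and 0% after 72 h. An unadjusted p under 0.05 was reached by 1 and 0 members, beside 1314 and 732 of all genes. For atirmociclib the shares past the test were 0.0124% and 2.19%. Here 1 member at each time had an unadjusted p under 0.05, beside 1431 and 2597 of all genes. The largest of these member differences was BBC3 at 24 h, -0.56 at 2 minus 1 µM of atirmociclib (95% interval -1.02 to -0.10). BCL2L1 at 72 h differed by 0.16 between the atirmociclib doses (0.052 to 0.27, adjusted p = 0.117).

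Finally, the effect of each treatment at 72 h was set against its effect at 24 h, by an interaction term in a fit over all 12 groups. BCL2L1 was the member whose effect differed most often, being smaller at 72 h in 4 of 5 treatments. The difference in log2 fold change was -0.36 for AU2-94 at 1 µM (SE 0.060, adjusted p = 5.14e-05, limma), -0.34 at 2 µM (adjusted p = 0.000126), -0.28 for atirmociclib at 1 µM (adjusted p = 0.000969) and -0.21 for ribociclib (adjusted p = 0.0117). For atirmociclib at 2 µM it was -0.12 and did not pass (95% interval -0.24 to 0.0032). The PMAIP1 fall was greater at 72 h with ribociclib, with a difference in log2 fold change of -0.71 (SE 0.20, adjusted p = 0.0124). With AU2-94 the PMAIP1 difference did not pass, at -0.42 for 1 µM (adjusted p = 0.147) and -0.32 for 2 µM (adjusted p = 0.3055). Nor did it with atirmociclib, at -0.51 for 1 µM (adjusted p = 0.0740) and -0.415 for 2 µM (adjusted p = 0.154). In this test 1 member passed with AU2-94 at 1 µM (beside 21.6% of all genes), 1 with its 2 µM dose (18.5%), 1 with atirmociclib at 1 µM (21.9%), 0 with its 2 µM dose (21.6%) and 2 with ribociclib (20.2%). For atirmociclib at 2 µM no member had an unadjusted p under 0.05, beside 5570 of the 16850 genes tested. In vehicle itself no member differed between 72 h and 24 h, where 7.5% of all genes did. MCL1 was the 1 member with an unadjusted p under 0.05 there, beside 3571 of all genes. It was 0.13 higher at 72 h (adjusted p = 0.146).

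Around the 10 members, 52 other genes of the pathway were listed: 13 more BCL2 family genes, 13 of the apoptosome and caspases, 7 inhibitor of apoptosis proteins (IAPs) and 19 regulators. BCL2A1, BCL2L10, HRK and BIRC7 did not pass the filter, their highest values being 0.963, 2.24, 15.7 and 2.68 normalised counts. BCL2L15 passed it at 24 h alone and BCL2L14 at 72 h alone, so that 9, 13, 6 and 19 genes were tested at each time. Among the 9 other BCL2 family genes 5 rose in every treatment at 24 h and 1 or 2 fell, and at 72 h 3 or 4 rose and 0 or 1 fell. Of the apoptosome and caspases, 1 or 2 of 13 were higher and 1 to 3 lower at 24 h and 1 or 2 higher and 1 to 4 lower at 72 h. Of the 6 IAPs, 0 or 1 rose and 1 fell at 24 h, and 1 to 3 rose and 1 fell at 72 h. Of the 19 regulators, 4 or 5 rose and 4 or 5 fell at 24 h, and 2 to 5 rose and 6 or 7 fell at 72 h. The shares of all genes called, given above, were 13.5 to 20.9% in either direction.

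BIRC5, which encodes survivin, an IAP also needed for mitosis, fell in all 10 comparisons. From 2205 ± 38.9 normalised counts in vehicle at 24 h (SD, n = 3), the treatment means were 412 to 628. On the log2 scale that was a change of -2.44 to -1.82, and the 72 h values were -1.89 to -0.82 (largest adjusted p = 0.000213, limma). E2F1, a transcription factor of the G1/S transition, fell in all 10 as well, with log2 fold changes of -1.69 to -0.60 (24 h) and -1.27 to -0.61 (72 h). In the other direction, the mitophagy receptors BNIP3 and BNIP3L, related to the BH3-only proteins, rose in all 10. BNIP3 went from 2726 ± 260.0 in vehicle to treatment means of 5752 to 7493 at 24 h, a log2 fold change of 1.05 to 1.46. BNIP3L rose by 0.62 to 1.15 (24 h) and 0.82 to 0.91 (72 h) on that scale, and its call for atirmociclib at 2 µM for 24 h was lost without treated replicate 1 (0.0825, log2 fold change 0.36) or treated replicate 2 (0.0501), and with only the groups compared in the fit (0.0744).

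The remaining named genes changed in fewer comparisons. CASP10, an initiator caspase of death receptors, rose in all 5 treatments at 72 h, from 13.7 ± 5.12 in vehicle to means of 38.5 to 62.2, a log2 fold change of 1.40 to 2.16 (SE 0.40, largest adjusted p = 0.0137, limma), and in none at 24 h, where AU2-94 at 2 µM passed without treated replicate 1 (0.0126) or without vehicle replicate 2 (0.0236). Vehicle at 24 h stood at 32.9 ± 15.2 (17.4 to 47.8), a range that takes in the lowest treatment mean at 72 h. These are low counts, and the AU2-94 2 µM call at 72 h was lost without treated replicate 1 (0.0624), treated replicate 2 (0.0626) or vehicle replicate 2 (0.0780). BIRC3, an IAP and ubiquitin ligase of NF-κB signalling, rose in 4 of 5 treatments at 72 h, most with atirmociclib at 2 µM (1.90, adjusted p = 2.79e-06). The ribociclib value did not pass (0.62, adjusted p = 0.0534) but did with a filter on a mean of 100 (0.0459), with the replicate block (0.0259), without treated replicate 2 (0.00284) or without vehicle replicate 1 (0.0478), and AU2-94 at 2 µM (0.74, adjusted p = 0.0228) was lost without treated replicate 1 (0.0506), treated replicate 2 (0.0612), treated replicate 3 (0.05005), vehicle replicate 2 (0.0670) or vehicle replicate 3 (0.0760), and after quantile normalisation (0.0664). BMF, a BH3-only sensor, fell with atirmociclib at 2 µM at 24 h (-1.27, adjusted p = 0.000553) and rose at 72 h with AU2-94 at 1 µM (0.69, adjusted p = 0.00296) and 2 µM (0.77, adjusted p = 0.00140) and atirmociclib at 1 µM (0.56, adjusted p = 0.01001), the last lost without treated replicate 2 (0.0505) or vehicle replicate 1 (0.0570).

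**Figure D5:**
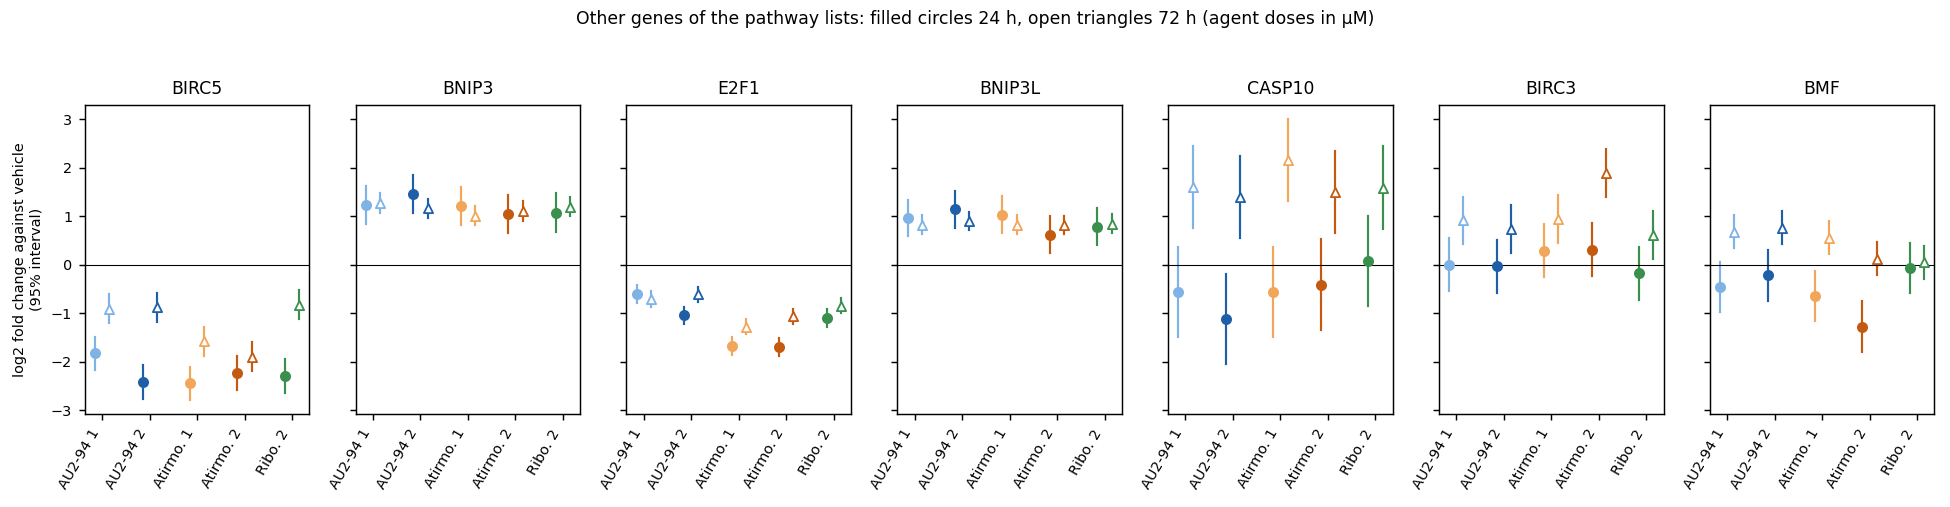
Log2 fold change against vehicle of the 7 named pathway genes in the 5 treatments at 24 h and 72 h, with 95% intervals. BIRC5 and E2F1 lie below 0 and BNIP3 and BNIP3L above 0 throughout, and CASP10 is above 0 at 72 h, from 1.40 to 2.16.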

How the data were processed

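RNA was sequenced from LNCaP cells in 36 libraries, 12 groups of 3. The authors deposited 1 table of normalised counts, a signal per gene and library already scaled by library size; per the labels and the study's methods it came from nf-core/rnaseq with STAR 2.6.1d on GRCh38 and DESeq2. The gene counter, annotation release and strand setting are not given in the sources used here. Because 5.983 to 45.33% of low values lay at whole multiples of a step, whole reads could not be recovered and no count model was run. Totals were 20675156 to 22692555, and read depth is unknown.

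Values were analysed as log2(normalised count + 1) in limma 3.58.1 (R 4.3.3) with moderated tests, a mean-variance trend and Benjamini-Hochberg adjustment over all genes with at least 10 normalised counts in at least 3 libraries, so a fold change of a low gene is understated. The 6 groups of a time point shared 1 fit, and all 12 groups the fit of differences over time. Calls were made at an adjusted p of at most 0.05, and under the stricter rule also needed a log2 fold change of 1 or more in size. Symbols, positions and exon lengths were from GENCODE 44, near-identical copies from BLAST 2.17.0 and promoters from RefSeq (GRCh38.p14). The members and the lists were chosen with earlier results of these data known. All 10 members are reported. Of the other pathway genes, up to 12 were to be named that passed the stricter rule in at least 1 comparison with vehicle. They were taken in order of the absolute mean log2 fold change over the 10 comparisons, which gave 7. The test was checked on simulated data. Some marker genes and 1 motif that were examined are not reported here.

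Replicate numbers carry a batch tag in the labels, which pairs libraries. Deviations from group means correlated at -0.0898 to 0.112 between same-numbered libraries at 24 h (mean 0.00179, 45 pairs) and at -0.0797 to 0.0502 at 72 h (mean -0.00217), beside means of -0.000884 and 0.00109 for different numbers. Alternatives were other pseudocounts, filters and scalings, a replicate block, no trend, other sets of groups in the fit and each library left out.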

Additional observations from a re-analysis of the deposited data

Results flagged for a closer look

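The effect of treatment on BCL2L1 differed between 24 h and 72 h by the interaction term of limma, with 0.06047 as the SE of each difference in log2 fold change. It was -0.3616 for AU2-94 at 1 µM (adjusted p = 5.136e-05), -0.3374 for AU2-94 at 2 µM (adjusted p = 0.0001263), -0.2782 for atirmociclib at 1 µM (adjusted p = 0.0009693) and -0.2119 for ribociclib at 2 µM (adjusted p = 0.0117), so the rise of BCL2L1 seen at 24 h was smaller at 72 h. The effect of ribociclib on PMAIP1 also differed, by -0.71 (SE 0.2042, adjusted p = 0.01237, limma), the fall being larger at 72 h. Time and seeding density cannot be told apart in these differences.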

How the results depend on the processing

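Of the 51 calls of BCL2 family members against vehicle, 28 held without each library in turn and under every other alternative, among them 7 of 7 for BCL2L1 and 9 of 9 for PMAIP1, but 0 of 3 for BIK, 0 of 1 for BID and 1 of 8 for BCL2L11; where a call was lost, the cause was not tested. The number of BCL2 family members changed moved by over 1.5 times in these cases. With no filter it was 0 for atirmociclib 1 µM minus AU2-94 1 µM at 72 h (from 1). With a filter on a mean of 100 it was 1 for atirmociclib 2 µM minus AU2-94 2 µM at 24 h (from 0), 2 for ribociclib 2 µM minus AU2-94 2 µM at 72 h (from 0) and 1 for ribociclib 2 µM minus atirmociclib 2 µM at 72 h (from 0). After quantile normalisation it was 1 for atirmociclib 2 µM minus AU2-94 2 µM at 24 h (from 0), 1 for AU2-94 1 µM minus vehicle at 72 h (from 2), 0 for atirmociclib 1 µM minus AU2-94 1 µM at 72 h (from 1) and 2 for atirmociclib 1 µM over time (from 1). After scaling to equal totals it was 2 for atirmociclib 2 µM minus AU2-94 2 µM at 72 h (from 1) and 1 for ribociclib 2 µM minus AU2-94 2 µM at 72 h (from 0). With the replicate block it was 0 for atirmociclib 1 µM minus AU2-94 1 µM at 72 h (from 1). Without the trend it was 1 for atirmociclib 2 µM minus AU2-94 2 µM at 24 h (from 0). With only the groups compared in the fit it was 1 for AU2-94 1 µM minus vehicle at 72 h (from 2) and 0 for atirmociclib 1 µM minus AU2-94 1 µM at 72 h (from 1). With all 12 groups in the fit it was 2 for ribociclib 2 µM minus AU2-94 2 µM at 72 h (from 0) and 1 for atirmociclib 2 µM minus 1 µM at 72 h (from 0). Leaving out 1 library at a time, it ran from 1 to 4 for AU2-94 1 µM minus vehicle at 24 h, 2 to 5 for AU2-94 2 µM minus vehicle at 24 h, 0 to 1 for atirmociclib 2 µM minus AU2-94 2 µM at 24 h, 1 to 2 for atirmociclib 1 µM over time, 4 to 6 for atirmociclib 2 µM minus vehicle at 24 h, 0 to 1 for ribociclib 2 µM minus atirmociclib 2 µM at 24 h, 1 to 3 for AU2-94 1 µM minus vehicle at 72 h, 0 throughout for atirmociclib 1 µM minus AU2-94 1 µM at 72 h, 1 to 2 for atirmociclib 2 µM minus AU2-94 2 µM at 72 h, 2 to 4 for atirmociclib 1 µM minus vehicle at 72 h, 4 to 7 for atirmociclib 2 µM minus vehicle at 72 h and 0 to 1 for ribociclib 2 µM minus atirmociclib 2 µM at 72 h. Signs were followed for all 10 members and the named pathway genes against vehicle, and in other comparisons only for BCL2, BCL2L1 and PMAIP1. The following log2 fold changes, none of them called, turned sign. With a pseudocount of 8, 0.0051 for BIRC3 AU2-94 1 µM minus vehicle at 24 h. After quantile normalisation, 0.0087 for BIRC3 AU2-94 1 µM minus vehicle at 24 h, 0.081 for BBC3 atirmociclib 2 µM minus vehicle at 24 h, 0.00065 for BID ribociclib 2 µM minus vehicle at 24 h, 0.025 for BBC3 ribociclib 2 µM minus vehicle at 24 h, 0.031 for BMF ribociclib 2 µM minus vehicle at 24 h, -0.026 for BCL2L1 atirmociclib 2 µM minus AU2-94 2 µM at 24 h, -0.032 for BCL2L1 atirmociclib 2 µM minus 1 µM at 24 h, 0.041 for BCL2L1 AU2-94 1 µM minus vehicle at 72 h and -0.0018 for BBC3 AU2-94 2 µM minus vehicle at 72 h. After scaling to equal totals, -0.065 for BIK atirmociclib 2 µM minus vehicle at 24 h, -0.040 for BAK1 ribociclib 2 µM minus vehicle at 24 h, -0.027 for BCL2 atirmociclib 2 µM minus AU2-94 2 µM at 24 h, -0.013 for BCL2L1 atirmociclib 2 µM minus AU2-94 2 µM at 24 h, -0.015 for BCL2L1 atirmociclib 2 µM minus 1 µM at 24 h, 0.018 for BCL2L1 AU2-94 1 µM minus vehicle at 72 h, -0.051 for BAK1 atirmociclib 2 µM minus vehicle at 72 h, 0.0046 for BCL2L1 ribociclib 2 µM minus atirmociclib 2 µM at 72 h and -0.025 for PMAIP1 vehicle over time. With recomputed median-of-ratios factors, -0.0011 for BCL2L1 atirmociclib 2 µM minus 1 µM at 24 h. Without 1 library at a time, those that turned sign, also uncalled, ran from -0.021 to 0.14 for BAK1 AU2-94 1 µM minus vehicle at 24 h, -0.33 to 0.29 for BIRC3 AU2-94 1 µM minus vehicle at 24 h, -0.32 to 0.17 for BCL2 AU2-94 2 µM minus 1 µM at 24 h, -0.14 to 0.054 for BIRC3 AU2-94 2 µM minus vehicle at 24 h, -0.35 to 0.44 for BCL2 atirmociclib 2 µM minus AU2-94 2 µM at 24 h, -0.0095 to 0.023 for BCL2L1 atirmociclib 2 µM minus 1 µM at 24 h, -0.15 to 0.012 for PMAIP1 atirmociclib 2 µM minus 1 µM at 24 h, -0.055 to 0.064 for BIK atirmociclib 2 µM minus vehicle at 24 h, -0.33 to 0.18 for BBC3 atirmociclib 2 µM minus vehicle at 24 h, -0.69 to 0.10 for BCL2 atirmociclib 2 µM over time, -0.046 to 0.055 for BAK1 ribociclib 2 µM minus vehicle at 24 h, -0.23 to 0.032 for BID ribociclib 2 µM minus vehicle at 24 h, -0.11 to 0.052 for BBC3 ribociclib 2 µM minus vehicle at 24 h, -0.30 to 0.40 for CASP10 ribociclib 2 µM minus vehicle at 24 h, -0.13 to 0.078 for BMF ribociclib 2 µM minus vehicle at 24 h, -0.021 to 0.12 for PMAIP1 vehicle over time, -0.036 to 0.011 for BCL2L1 AU2-94 1 µM minus vehicle at 72 h, -0.0079 to 0.062 for MCL1 AU2-94 1 µM minus vehicle at 72 h, -0.56 to 0.052 for BCL2 AU2-94 2 µM minus 1 µM at 72 h, -0.27 to 0.012 for PMAIP1 AU2-94 2 µM minus 1 µM at 72 h, -0.0059 to 0.054 for BCL2L1 AU2-94 2 µM minus vehicle at 72 h, -0.11 to 0.013 for BID AU2-94 2 µM minus vehicle at 72 h, -0.050 to 0.12 for PMAIP1 atirmociclib 2 µM minus 1 µM at 72 h, -0.057 to 0.14 for BAK1 atirmociclib 2 µM minus vehicle at 72 h, -0.17 to 0.11 for BBC3 atirmociclib 2 µM minus vehicle at 72 h, -0.17 to 0.54 for BCL2 ribociclib 2 µM minus atirmociclib 2 µM at 72 h, -0.018 to 0.074 for MCL1 ribociclib 2 µM minus vehicle at 72 h, -0.14 to 0.0029 for BAK1 ribociclib 2 µM minus vehicle at 72 h and -0.058 to 0.15 for BMF ribociclib 2 µM minus vehicle at 72 h. With the replicate block, calls against vehicle were lost for BCL2L11 with AU2-94 at 1 µM for 24 h (adjusted p = 0.0595, limma), BAX with AU2-94 at 2 µM for 24 h (0.0577) and BIK with atirmociclib at 2 µM for 72 h (0.0543). It gained PMAIP1 with AU2-94 at 1 µM for 24 h (0.0286) and BIRC3 with ribociclib for 72 h (0.0259), and changed no other call of a named gene besides PMAIP1 between atirmociclib and AU2-94 at 1 µM for 72 h (0.0557). Comparisons of single BCL2 family members that had not passed gained a call in 8 cases after scaling to equal totals, 8 with all 12 groups in the fit, 5 with a filter on a mean of 100, 4 after quantile normalisation, 2 without the trend, 2 with only the groups compared, and 10 without 1 library. That tally covers all 10 members against vehicle. In the other comparisons it covers only BCL2, BCL2L1 and PMAIP1, so a call gained there by another member is not in it. The count of other pathway genes changed was 17 to 25, and stayed within 1.5 times under every alternative, a set of fits chosen after seeing the data. Scaling moved the median of all genes by over 0.1 in 1 case, equal totals for atirmociclib minus AU2-94 at 2 µM at 72 h (-0.105). Read depth per library is not known, since the deposited values are not whole reads.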

Other observations

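For each member, the gene with the most similar profile over the 12 group means was sought among 11345 genes with a mean of at least 100 normalised counts, by Pearson's r, given as a description with no test. BCL2L1 was most like SORD (r = 0.988), BIK most like ARID5B (0.984), PMAIP1 most like TGFBR1 (0.966) and BAX most like PRPF3 (0.961). The others were SPINDOC for BCL2L11 (0.959), ZNF324 for BCL2 (0.957), RFX7 for MCL1 (0.953), PHF8 for BID (0.944), MKKS for BAK1 (0.919) and MAPK13 for BBC3 (0.861). Pearson's r does not weigh the size of a change. On the log2 scale the means of PMAIP1 spanned 1.44 and those of TGFBR1 0.567, and BCL2 spanned 1.82 beside 0.472 for ZNF324. BCL2L1 and SORD were nearer, at 0.468 and 0.516. The 12 means share the vehicle and treatment groups of 1 cell line, and the best of so many genes is high for any profile.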
